A study of Mus musculus with 22 samples.

Results

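GATA1-LSK is the fraction of the LSK compartment of mouse bone marrow (lineage-negative, Sca-1-positive, Kit-positive cells, which hold the stem cells and the earliest multipotent progenitors) that lacked the signal of a GATA1 reporter. It was set against the 4 other sorted populations at once, and the members were the 4 arrays that the titles name GATA1-LSK, of 22 arrays in all. The others were GATA1+LSK, the reporter-positive fraction of the same compartment (4 arrays), LMPP, the lymphoid-primed multipotent progenitors (4 arrays), CMP, the common myeloid progenitors (4 arrays), and LT-HSC, the long-term haematopoietic stem cells (6 arrays). All 5 populations came from bone marrow of C57BL/6 mice aged 8 weeks that carried a GATA1-GFP transgene, so no group was free of the transgene, and the labels name no treatment. RNA was amplified to biotin-labelled cRNA and hybridised to Illumina bead arrays. The gates of the sorts, and whether replicates came from separate mice, are not given in the sources used here, so p-values measure only the spread between these samples, which may be technical.

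GATA1 is a zinc-finger transcription factor that drives the erythroid, megakaryocytic, mast cell and eosinophil programmes, and it binds DNA at GATA motifs with partners such as TAL1, LMO2, LDB1 and FOG1. It opposes PU.1 (Spi1), which drives granulocyte, monocyte and lymphoid fates. Cells of the LSK compartment without GATA1 are usually placed after the stem cell and before or beside the lymphoid-primed progenitor, which has lost most megakaryocytic and erythroid potential. A first question was whether any gene was higher, or lower, there than in every other population. The other was whether the remaining genes lay between LT-HSC and LMPP.

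The labels were checked first against the reporter's gene. Levels are log2 signals after background correction and quantile normalisation. Gata1 read 6.24, 5.70, 5.48 and 5.48 on the GATA1-LSK arrays and 7.91, 7.59, 6.83 and 6.44 on the GATA1+LSK arrays. No GATA1-LSK array reached the lowest GATA1+LSK array, and the difference was -1.47 ± 0.28 (adjusted p = 0.00411) by the moderated test of limma. Each difference in the text is GATA1-LSK minus the other population, ± its standard error. LMPP arrays lay lower, at 4.51 to 4.96, and LT-HSC arrays at 4.53 to 5.51 with a median of 5.0, while GATA1-LSK exceeded them by 0.96 (adjusted p = 0.0644) and 0.70 (adjusted p = 0.122), neither of which passed. Since the sort itself used the reporter, the contrast with GATA1+LSK checks the labels and is no result. Kit, the stem cell factor receptor that defines the gate, was bright on every GATA1-LSK array, at 12.10 to 12.41. Ly6a, which encodes Sca-1, has no probe paired with it. Flt3, a receptor commonly used to sort LMPP, lay near background in every population, at 4.55 to 5.11 in GATA1-LSK and 4.72 to 5.34 in LMPP. Only the brighter of its 2 detected probes was read, and that probe did not mark LMPP. Cd34, a progenitor sialomucin, read 7.63, 7.58, 7.36 and 6.88 in GATA1-LSK, above all GATA1+LSK arrays, which spanned 5.51 to 6.55, by 1.19 ± 0.30 (adjusted p = 0.0304). Cd34 was also 1.13 ± 0.27 (adjusted p = 0.0167) higher than in LT-HSC, whose highest array overlapped GATA1-LSK array 4.

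Arrays lay on 4 slides, and 3 of the 4 GATA1-LSK arrays shared slide 1 with 3 LMPP arrays, while the other was on slide 3 with 4 LT-HSC arrays and 1 GATA1+LSK array. No slide held GATA1-LSK and CMP together. Mean signal was 207 to 309 on slide 1 and 123 to 209 on slide 3, and 12264 to 19015 probes were detected per array over the series. Among markers of other cell types, the summed log2 level of the 6 measured of 10 mature neutrophil markers was 7.43 to 8.56 in GATA1-LSK and 7.58 to 12.19 in LT-HSC, with 2 and 1 of them detected on every array. The 4 measured of 10 B and plasma cell markers summed to 9.54 to 10.53 in GATA1-LSK and 9.78 to 11.32 in LT-HSC, with 1 detected on every array in each. Only 1 of 10 T and NK cell markers was measured, at 12.76 to 13.04 in GATA1-LSK against 9.20 to 12.99 in LT-HSC. The 6 measured of 10 stroma and endothelium markers, Bgn among them, summed to 9.83 to 10.28 in GATA1-LSK, 9.88 to 10.38 in LT-HSC, 8.69 to 9.09 in LMPP and 8.35 to 9.18 in CMP, with 5 of them detected on every GATA1-LSK array. The part of such cells in the differences was not tested. In bulk arrays, fewer cells of a type and less RNA per cell cannot be told apart.

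At the threshold used, no gene was higher, and none lower, in GATA1-LSK than in each of the 4 other populations. Of 11118 genes tested, GATA1-LSK differed from GATA1+LSK in 305 (185 higher, 1.66% of those tested, and 120 lower, 1.08%), from LMPP in 388 (239 higher, 2.15%, and 149 lower, 1.34%), from CMP in 853 (581 higher, 5.23%, and 272 lower, 2.45%) and from LT-HSC in 606 (301 higher, 2.71%, and 305 lower, 2.74%), at a Benjamini-Hochberg adjusted p under 0.05. A gene called in all 4 comparisons with 1 direction was not found, 0 higher and 0 lower by limma. At an unadjusted p under 0.05 in each of the 4 tests, 14 genes were higher and 3 lower. Fits with the slide as a block also gave 0 and 0. The 4 comparisons share the GATA1-LSK arrays, so their calls are not independent. Of the genes tested, 9562 (86%) were called in none of the 4 comparisons, 1108 (9.97%) in 1, 316 (2.84%) in 2, 116 (1.04%) in 3 and 16 (0.144%) in all 4 with mixed directions.

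Under median scaling the median difference of all genes was -0.12 against LMPP and -0.23 against CMP, against -0.01 and 0.01 with quantile normalisation, and the balance of calls turned. The share of called genes that were higher in GATA1-LSK was then 23.4% against GATA1+LSK, 43.4% against LMPP, 36.6% against CMP and 40.1% against LT-HSC, where quantile normalisation gave 60.7%, 61.6%, 68.1% and 49.7%. Cyclic loess gave 38.7% against LT-HSC. With the slide as a fixed block the shares were 48.1% against GATA1+LSK and 37.3% against LT-HSC. The counts of higher and lower genes therefore depend on the scaling. Leaving out GATA1-LSK array 1, 2 or 3 lowered the count against GATA1+LSK to 175, 180 or 200 and that against LT-HSC to 284, 315 or 369. Leaving out GATA1+LSK array 3 or 4 gave 203 or 181 against GATA1+LSK.

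The same test put to each other population gave more such genes. LT-HSC was higher than all 4 others in 180 genes and lower in 115, LMPP in 62 and 60, GATA1+LSK in 26 and 32, and CMP in 45 and 123. With the slide as a block these counts were 95 and 58 for LT-HSC, 49 and 43 for LMPP, 34 and 34 for GATA1+LSK, and 43 and 102 for CMP. GATA1+LSK, LMPP and CMP had as many arrays as GATA1-LSK, whereas LT-HSC had 6. GATA1-LSK held the highest group mean for 1803 genes (16.2%) and the lowest for 1398 (12.6%), the fewest of both among the 5 populations. Those counts were 1894 and 2216 for GATA1+LSK, 2320 and 1832 for LMPP, 2633 and 2423 for CMP, and 2468 and 3249 for LT-HSC. The difference between populations in these counts was not tested.

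**Figure D1:**
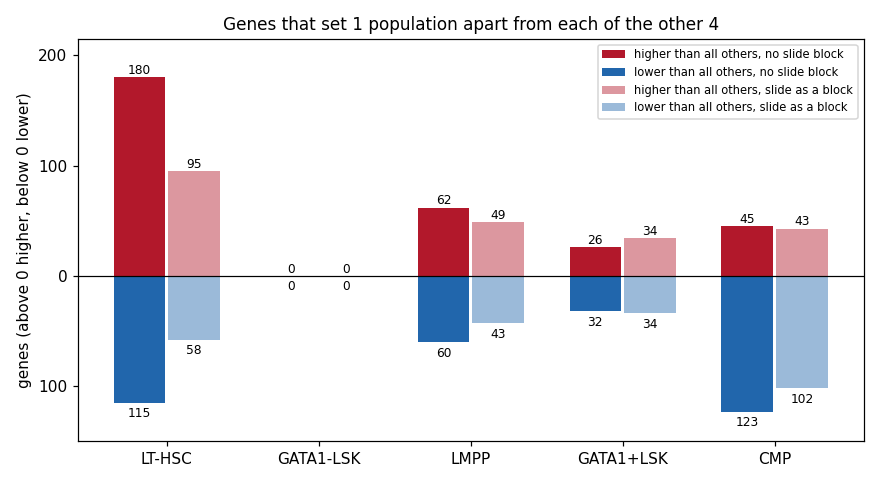
Number of genes (vertical axis, bars up from 0 for higher and down from 0 for lower) called higher or lower in each population than in all 4 others, without and with the slide as a block. The GATA1-LSK bars are at 0 in both fits, whereas LT-HSC reaches 180 higher and LMPP 62 higher without the block.

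Ranked by the largest of its 4 adjusted p, the gene nearest to being private to GATA1-LSK was Slc7a8. It encodes a light subunit of a neutral amino acid transporter. It read 8.21, 8.09, 7.93 and 8.14 on the GATA1-LSK arrays, 6.46, 6.75, 6.17 and 6.59 in GATA1+LSK, 4.62, 5.13, 5.01 and 5.07 in LMPP and 6.12, 7.35, 8.15 and 7.20 in CMP, and 5.95 to 7.47 with a median of 6.67 in LT-HSC. All GATA1-LSK arrays exceeded every LT-HSC, LMPP and GATA1+LSK array, and CMP array 3 was the only CMP array among them. GATA1-LSK was 3.14 ± 0.35 (adjusted p = 3.27e-06) above LMPP, 1.60 ± 0.35 (adjusted p = 0.013) above GATA1+LSK and 1.43 ± 0.32 (adjusted p = 0.00949) above LT-HSC, whereas the 0.88 ± 0.35 (adjusted p = 0.147) above CMP did not pass. Without CMP array 3 the gene was called against all 4, with a largest adjusted p of 0.0294. Ranked by the largest unadjusted p of the same limma tests, Selenon came first, at 0.0142 against 0.0195 for Slc7a8. The promoter of Slc7a8 is shown because, by adjusted p, the gene came closest to separating GATA1-LSK from every other population. The bases run from 250 before to 50 after the first listed start, from RefSeq on GRCm38.p6, chr14:54781837-54782136, minus strand. Capitals mark GAGGAAG, a core bound by PU.1, which lies here on the reverse strand from base 56.
Slc7a8: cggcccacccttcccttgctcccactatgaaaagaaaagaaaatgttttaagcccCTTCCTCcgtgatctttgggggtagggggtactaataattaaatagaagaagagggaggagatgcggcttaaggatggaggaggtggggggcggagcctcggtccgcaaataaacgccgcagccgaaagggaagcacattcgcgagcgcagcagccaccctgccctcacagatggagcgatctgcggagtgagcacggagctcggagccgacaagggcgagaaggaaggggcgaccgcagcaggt

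Thy1, a surface glycoprotein present at low density on mouse stem cells, came next. It read 9.95, 9.73, 9.86 and 8.75 in GATA1-LSK, 8.89, 8.90, 7.29 and 6.53 in GATA1+LSK, 7.0, 7.26, 6.84 and 5.59 in LMPP, 7.34, 7.09, 7.12 and 6.59 in CMP and 8.08 to 8.97 with a median of 8.54 in LT-HSC. GATA1-LSK array 4 fell inside the range of LT-HSC and of GATA1+LSK, and the other 3 arrays lay above both. Thy1 was 1.67 ± 0.44 (adjusted p = 0.0426) higher than in GATA1+LSK, 2.90 ± 0.44 (adjusted p = 0.000198) than in LMPP and 2.54 ± 0.44 (adjusted p = 0.000549) than in CMP, and exceeded LT-HSC by 1.01 ± 0.40 (adjusted p = 0.163), which did not pass. On slide 3, where GATA1-LSK array 4 met 4 LT-HSC arrays, that difference was 0.23. Nucb1, a calcium-binding Golgi protein, Hsd3b7, an enzyme of bile acid synthesis, and Mtap, which salvages methionine, followed with largest adjusted p of 0.194, 0.207 and 0.208. The other probe of Nucb1 did not share the direction in all 4 comparisons, while those of Hsd3b7 and Mtap did.

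In exactly 3 of the 4 comparisons, 10 genes were called higher in GATA1-LSK and 3 lower, with the remaining difference of the same sign. The higher genes, named after their values were seen as were the lower, were Clec4e, Col4a2, Coro2b, Epb41l1, Selenon, Slc7a8, Tfr2, Thy1, Tmem114 and Vldlr. Tfr2 is a transferrin receptor of liver and erythroid cells, and Vldlr takes up triglyceride-rich lipoproteins. The other probes of Tfr2 and Clec4e did not share the direction in all 4 comparisons, while those of Epb41l1 and Vldlr did. The lower genes were Mrvi1, Myadml2 and Notch1. For 7 of the 13 (Clec4e, Col4a2, Coro2b, Notch1, Tfr2, Tmem114 and Vldlr) the remaining difference changed sign under at least 1 alternative setting. Of the calls themselves, that of Col4a2 against LMPP was lost in 20 of 37 other settings. That of Thy1 against GATA1+LSK was lost in 14, that of Tfr2 against LT-HSC in 13 and those of Mrvi1 in 0. Mrvi1 was detected on 0 GATA1-LSK and 2 LT-HSC arrays, so its remaining difference lay near background. Epb41l1, a protein 4.1 family member that ties membrane proteins to the cytoskeleton, read 8.35, 7.91, 8.61 and 7.02 in GATA1-LSK. Its LMPP arrays were nearest, at 6.35 to 7.34, and overlapped GATA1-LSK array 4. It missed only that comparison, with 1.04 ± 0.43 (adjusted p = 0.324).

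Among the settings run with adjusted p-values, weighting arrays by their fit gave the largest number of genes apart from all 4 populations. Under these weights, 8 genes were higher in GATA1-LSK than in all 4 populations (1700019D03Rik, Epb41l1, Fam181b, Lrch4, Mc5r, Selenon, Slc7a8 and Thy1) and Crem, a cAMP-responsive transcription factor, was lower, with largest adjusted p between 0.0116 and 0.0433. These weights ranged from 0.271 for GATA1+LSK array 4 to 5.67 for CMP array 2, and the GATA1-LSK arrays had 1.5, 2.05, 1.19 and 0.647. With the replicate number as a block, Epb41l1 was higher (largest adjusted p = 0.038) and Mrpl55, a mitochondrial ribosomal protein, lower (0.0345).

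**Figure D2:**
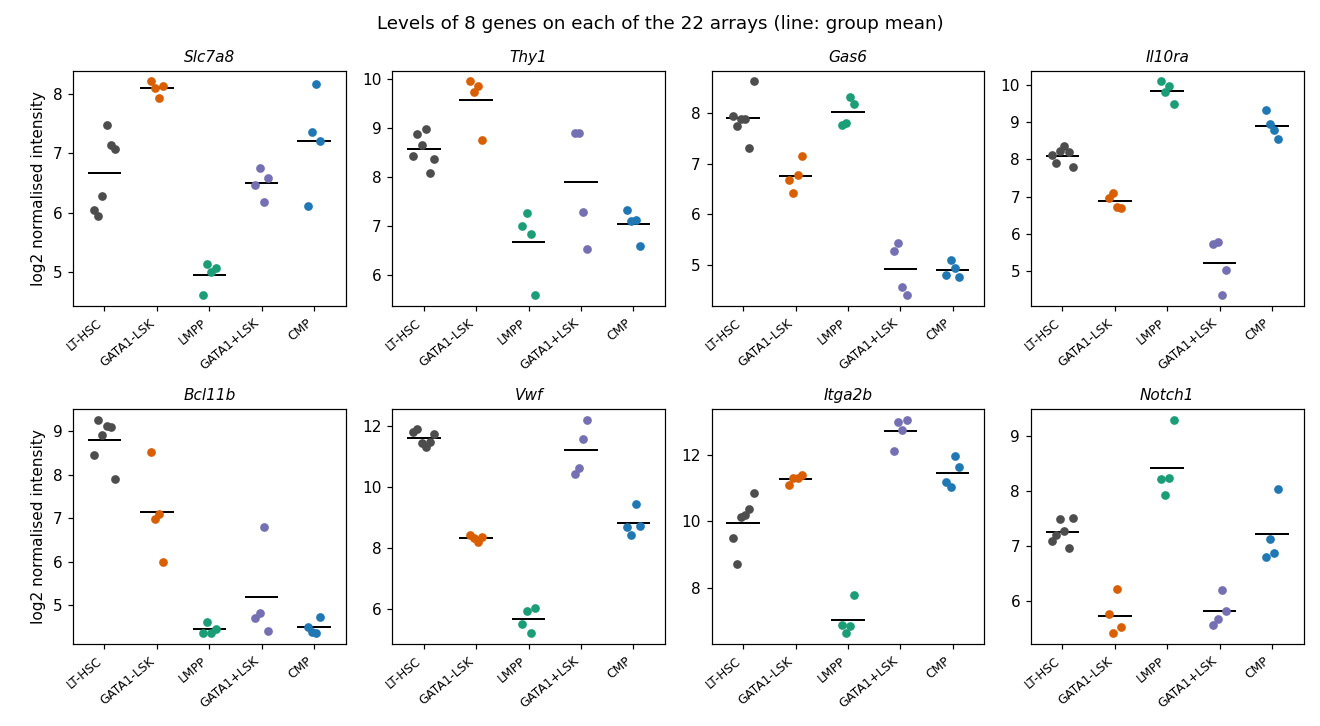
Log2 level (vertical axis) of 8 genes on each of the 22 arrays, grouped by population, with a bar at each group mean. GATA1-LSK leads for Slc7a8 and Thy1, although CMP array 3 reaches its range for Slc7a8 and its own array 4 falls into the LT-HSC range for Thy1. GATA1-LSK lies between LT-HSC and LMPP for Vwf.

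Of the genes tested, 16 differed from all 4 populations, in mixed directions, and were named after their values were seen. The commonest pattern, in 7 genes, was higher than GATA1+LSK, LMPP and CMP but lower than LT-HSC: Bcl11b, Eno2, Hid1, Igf2, Pde1b, Slc16a9 and Smagp. The other probe of Hid1 did not share all these directions, while those of Bcl11b, Pde1b, Slc16a9 and Smagp did. Bcl11b, a zinc-finger factor of T cell commitment, read 8.54, 6.98, 7.09 and 6.00 in GATA1-LSK, 4.70, 4.83, 6.81 and 4.41 in GATA1+LSK and 7.90 to 9.27 with a median of 9.01 in LT-HSC. It lay at 4.36 to 4.62 in LMPP and 4.37 to 4.72 in CMP. GATA1-LSK array 1 was well above the other 3 and inside the LT-HSC range, and GATA1+LSK array 3 reached 6.81, inside the GATA1-LSK range. The differences were 1.97 ± 0.46 (adjusted p = 0.0206) from GATA1+LSK and -1.64 ± 0.42 (adjusted p = 0.0233) from LT-HSC. No LMPP or CMP array detected Bcl11b, so GATA1-LSK, with a mean of 7.15, was at least 4.7-fold higher than LMPP (measured mean 4.44, adjusted p = 0.000605) and at least 4.7-fold higher than CMP (4.49, adjusted p = 0.000517). Such a bound divides the brighter group's mean by the other group's mean over arrays of the dimmest signal that passed detection, or of the gene's own signal where that was higher. On slide 3 alone the difference from GATA1+LSK was -0.81, of the opposite sign, for 1 array of each.

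Gas6, the ligand of the TAM receptor tyrosine kinases, showed another pattern, above GATA1+LSK and CMP but below LMPP and LT-HSC. It read 6.68, 6.41, 6.78 and 7.14 in GATA1-LSK, 5.27, 5.44, 4.57 and 4.41 in GATA1+LSK, 7.77, 7.80, 8.31 and 8.17 in LMPP, 4.81, 5.11, 4.95 and 4.75 in CMP and 7.31 to 8.62 with a median of 7.87 in LT-HSC. The GATA1-LSK arrays overlapped with no array of another population. The differences were 1.83 ± 0.26 (adjusted p = 0.000205) from GATA1+LSK, 1.85 ± 0.26 (adjusted p = 4.7e-05) from CMP, -1.26 ± 0.26 (adjusted p = 0.00428) from LMPP and -1.14 ± 0.24 (adjusted p = 0.00576) from LT-HSC. Zcchc18 had the same pattern, but its other probe did not share all the directions. Il10ra, the receptor chain of the anti-inflammatory cytokine IL-10, was above GATA1+LSK alone. It read 6.97, 7.11, 6.73 and 6.70 in GATA1-LSK and 5.72, 5.78, 4.37 and 5.04 in GATA1+LSK, and at least 7.80 in LT-HSC, 8.54 in CMP and 9.48 in LMPP, again with no overlap. Il10ra differed by 1.65 ± 0.26 (adjusted p = 0.000631) from GATA1+LSK and by -2.96 ± 0.26 (adjusted p = 8.48e-08) from LMPP.

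The remaining genes of the 16 fell in 3 patterns. Aldh1a1, a retinaldehyde dehydrogenase, Bex4 and Nupr1, a stress-induced chromatin protein, were below GATA1+LSK and LT-HSC but above LMPP and CMP. Aldh1a1 differed by -1.40 ± 0.21 (adjusted p = 0.000528) from GATA1+LSK, and no LMPP array detected it, so GATA1-LSK was at least 1.13-fold higher (5.09 against a measured 4.27, adjusted p = 0.0328). Aqp1, the water channel of red cells, was above LMPP by 3.25 ± 0.28 (adjusted p = 9.05e-08) and below GATA1+LSK, at -2.91 ± 0.28 (adjusted p = 3.09e-06), with CMP and LT-HSC also higher. Espl1, the protease separase that opens cohesin at anaphase, and Ckap5, a microtubule polymerase, were above LT-HSC and below the other 3. Several of these calls rested on the setting. Against CMP the call was lost in 21 of 36 other settings for Ckap5, 12 for Espl1 and 19 for Aldh1a1, and against GATA1+LSK that of Igf2 was lost in 23 of 37.

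To place GATA1-LSK between LT-HSC and LMPP, each gene was given a position, 0 at the LT-HSC mean and 1 at the LMPP mean. LMPP differed from LT-HSC in 1798 genes (920 higher, 8.27%, and 878 lower, 7.9%), of which 1152 differed by at least 1 on the log2 scale. Over these 1152 genes the median position of GATA1-LSK was 0.53 (interquartile range 0.28 to 0.73), and 989 (85.9%) lay between the ends. Over all tested genes 50.4% lay between. GATA1+LSK had a median of 0.48 but a wider spread (0.08 to 0.86), with 724 (62.8%) between, and CMP a median of 0.91 with 618 (53.6%) between. The genes higher in LMPP had a GATA1-LSK median of 0.60 (442 of 520 between, 85%), and those lower in LMPP one of 0.48 (547 of 632 between, 86.6%).

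By array, the median positions of GATA1-LSK were 0.59, 0.51, 0.51 and 0.44, the lowest being array 4, which was also the one on slide 3 with most LT-HSC arrays. With the ends taken from other slides alone (LT-HSC arrays 1 and 2, and LMPP array 4) they were 0.54, 0.50, 0.51 and 0.55 over 812 genes. Array 4 was then the highest. The 812 were those of the 1152 genes with a same-sign difference of at least 1 between these ends. Their choice thus still used the LT-HSC and LMPP arrays on slides 1 and 3. On that scale LT-HSC arrays 3 to 6, which shared slide 3, lay at 0.14 to 0.21 rather than at 0. With the slide as a block, GATA1-LSK lay at 0.53 with 87.7% of 983 genes between. These are descriptions of group means, with no test, and the genes were chosen by their difference between LT-HSC and LMPP.

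**Figure D3:**
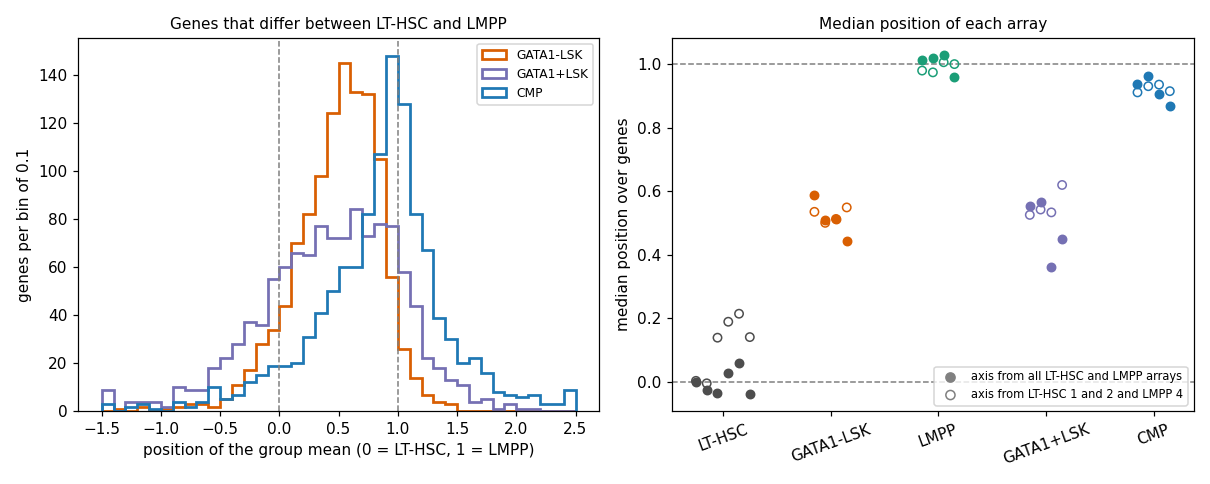
Left, histograms of the positions of GATA1-LSK, GATA1+LSK and CMP over 1152 genes (number of genes per bin), with 0 at LT-HSC and 1 at LMPP and values beyond the axis placed in the outermost bins. Right, the median position of each array, with filled points for ends from all arrays and open points for ends from LT-HSC arrays 1 and 2 and LMPP array 4. GATA1-LSK arrays centre on 0.44 to 0.59, away from both ends.

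Few single genes showed both steps. GATA1-LSK was called apart from LT-HSC and from LMPP, between them, for 60 genes (0.54%), of which 8 rose from LT-HSC through GATA1-LSK to LMPP and 52 fell. All arrays of the 3 populations were in non-overlapping order for 45 of the 60. The 60 were chosen by tests on these same arrays, so that order is no separate support. Over all tested genes, the GATA1-LSK arrays did not overlap those of LMPP for 9.94% and those of LT-HSC for 6.42%. GATA1+LSK had a mean between the ends for 51 of the 60 and CMP for 28. Leaving out GATA1-LSK array 2 or 3 reduced the 60 to 34 or 37, and median scaling to 13.

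Vwf, the platelet adhesion protein that marks platelet-biased stem cells, led the falling genes. It read 11.32 to 11.92 with a median of 11.61 in LT-HSC, 8.44, 8.31, 8.18 and 8.37 in GATA1-LSK and 5.50, 5.93, 5.20 and 6.01 in LMPP, with wide gaps between the groups. GATA1-LSK lay 2.66 ± 0.31 (adjusted p = 5.61e-06) above LMPP and at -3.30 ± 0.28 (adjusted p = 1.62e-07) from LT-HSC. GATA1+LSK arrays, at 10.42 to 12.21, were all above it. Sult1a1, a phenol sulfotransferase, read 9.25 to 10.99 with a median of 10.29 in LT-HSC and 7.0, 7.17, 7.72 and 6.96 in GATA1-LSK, and no LMPP array detected it. GATA1-LSK was at least 4.91-fold above LMPP (7.21 against a measured 4.73, adjusted p = 0.000869) and differed from LT-HSC by -3.05 ± 0.40 (adjusted p = 5.67e-05). Igf2, an imprinted growth factor, read 8.54 to 9.56 with a median of 8.96 in LT-HSC, 5.69, 6.67, 6.27 and 5.16 in GATA1-LSK and 4.36 to 4.89 in LMPP. It was among the genes apart from all 4 populations, 1.32 ± 0.29 (adjusted p = 0.00824) above LMPP and at -3.08 ± 0.27 (adjusted p = 1.62e-07) from LT-HSC.

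Fewer genes rose. Tnfaip8l2, a negative regulator of immune receptor signalling, read 4.72 to 5.76 with a median of 5.33 in LT-HSC, 7.31, 6.6, 6.37 and 6.63 in GATA1-LSK and 8.14, 8.60, 8.95 and 8.61 in LMPP, without overlap. It was 1.46 ± 0.22 (adjusted p = 0.000329) above LT-HSC and at -1.85 ± 0.24 (adjusted p = 3.01e-05) from LMPP. Espl1 read 5.62 to 7.06 with a median of 6.09 in LT-HSC, 7.31, 7.32, 7.86 and 7.28 in GATA1-LSK and 8.20, 8.63, 8.81 and 8.21 in LMPP. GATA1-LSK exceeded LT-HSC by 1.26 ± 0.24 (adjusted p = 0.00222) and lay at -1.02 ± 0.26 (adjusted p = 0.0254) from LMPP. The others were Bex6, Ckap5, Mxd3, Pimreg, Rpa2, which binds single-stranded DNA at the fork, and Sting1, the adaptor of cytosolic DNA sensing. The call against LT-HSC was lost in 25 of 37 other settings for Mxd3, 26 for Pimreg, 22 for Rpa2 and 23 for Sting1, against 7 for Bex6, 2 each for Ckap5 and Espl1 and 0 for Tnfaip8l2. Among the falling genes, Upp1, uridine phosphorylase, lay closer to LT-HSC, 4.31 ± 0.27 (adjusted p = 4.98e-10) above LMPP and -1.08 from LT-HSC (adjusted p = 0.0112). Nupr1, Aqp1, Cracr2b and Akr1c19 also fell.

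**Figure D4:**
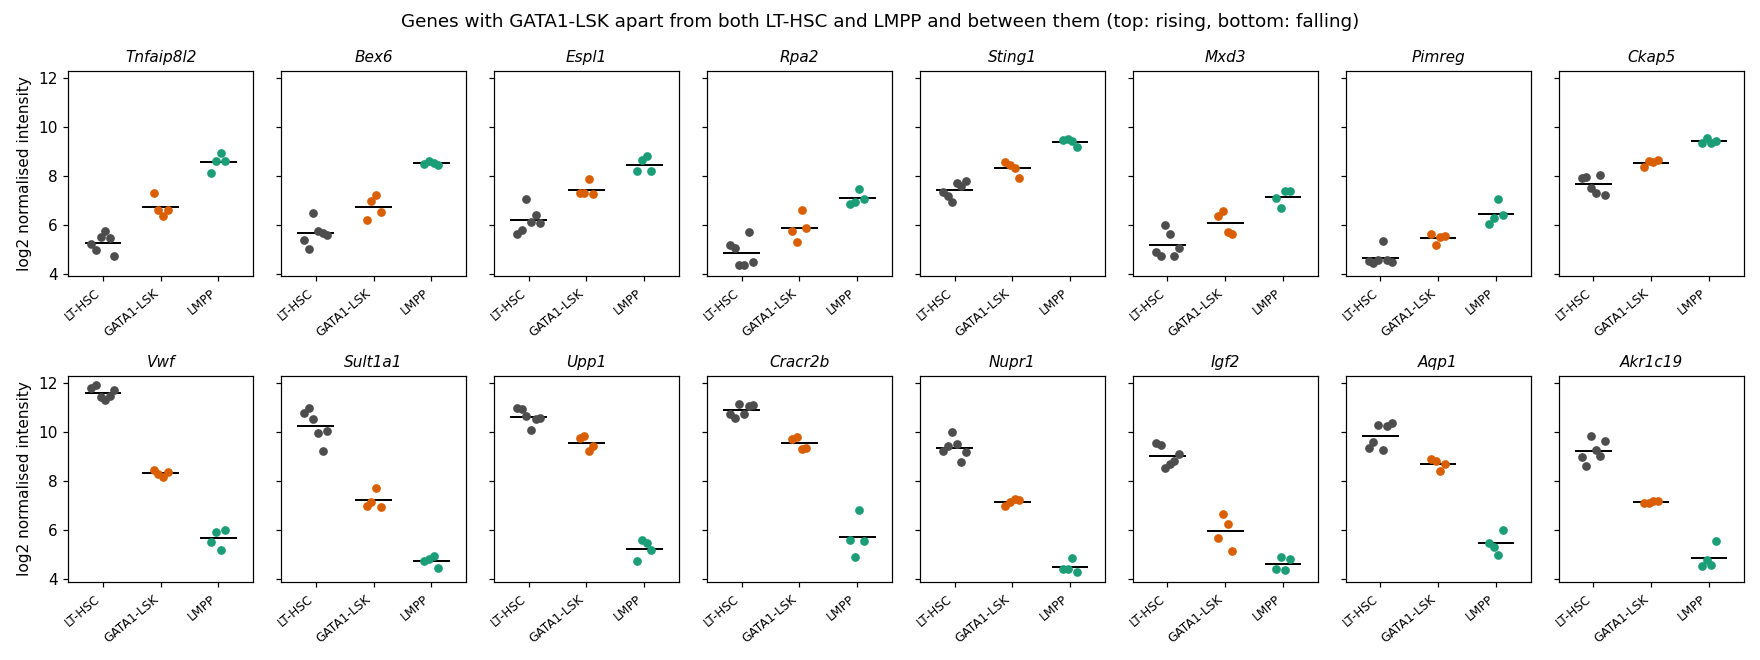
Log2 level (vertical axis) on each LT-HSC, GATA1-LSK and LMPP array as points, with a line at each group mean, for 16 genes called apart from both ends, 8 rising and 8 falling. GATA1-LSK lies at 8.32 for Vwf, between 11.62 in LT-HSC and 5.66 in LMPP.

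Promoters are shown for the 2 genes of each direction with the largest difference between LMPP and LT-HSC among those in the promoter table. They cover the same window around the first listed start, from RefSeq on GRCm38.p6. Of the falling genes, Sult1a1 lies at chr7:126676369-126676668, minus strand, and holds GAGGAAG (capitals) on the reverse strand from base 245, and Upp1 lies at chr11:9117758-9118057, plus strand, and holds a GATA motif (capitals) from base 185. Of the rising genes, Tnfaip8l2 at chr3:95142305-95142604, minus strand, holds a GATA motif (capitals) from base 181, and Bex6 at chr16:32179550-32179849, plus strand, holds neither. The motifs searched on both strands for GATA factors were spelled AGATAA in the first form, AGATAG in another, TGATAA in the next and TGATAG in the last, and that for PU.1 was GAGGAAG.
Sult1a1: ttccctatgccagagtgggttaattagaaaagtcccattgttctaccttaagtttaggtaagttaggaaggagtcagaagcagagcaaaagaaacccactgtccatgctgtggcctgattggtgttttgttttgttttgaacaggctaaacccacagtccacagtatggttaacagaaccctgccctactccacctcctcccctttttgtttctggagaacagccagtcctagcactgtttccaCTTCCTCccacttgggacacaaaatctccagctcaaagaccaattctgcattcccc
Upp1: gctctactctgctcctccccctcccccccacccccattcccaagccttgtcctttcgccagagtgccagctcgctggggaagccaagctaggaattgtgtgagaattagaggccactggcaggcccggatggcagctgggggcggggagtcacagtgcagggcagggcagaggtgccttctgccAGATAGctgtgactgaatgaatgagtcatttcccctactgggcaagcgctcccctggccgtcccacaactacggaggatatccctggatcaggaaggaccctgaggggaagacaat
Tnfaip8l2: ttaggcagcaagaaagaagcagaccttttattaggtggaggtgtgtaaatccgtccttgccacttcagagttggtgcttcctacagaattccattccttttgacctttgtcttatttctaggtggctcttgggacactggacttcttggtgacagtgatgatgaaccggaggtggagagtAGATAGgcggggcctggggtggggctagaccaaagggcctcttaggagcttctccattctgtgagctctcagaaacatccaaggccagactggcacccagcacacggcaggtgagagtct
Bex6: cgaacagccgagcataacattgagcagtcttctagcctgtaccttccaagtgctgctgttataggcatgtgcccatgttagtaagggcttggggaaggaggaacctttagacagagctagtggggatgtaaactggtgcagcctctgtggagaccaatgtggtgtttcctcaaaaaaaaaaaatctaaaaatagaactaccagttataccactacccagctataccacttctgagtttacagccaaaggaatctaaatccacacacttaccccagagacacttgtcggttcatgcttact
A GATA motif stood in 11 of the 46 stepwise genes with a promoter (23.9%) and in 19.9% of the 9020 tested genes with one. GAGGAAG stood in 6 (13%) and in 13.1%. The shares lay close to those of all genes, and a match describes letters only.

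Off the midpoint between LT-HSC and LMPP, 159 of the 11118 genes were called (1.43%). Among genes that differed between the ends, 20 were nearer to LMPP and 92 nearer to LT-HSC, while 1686 were called on neither side. The 20 and the 92 include genes that lay beyond the nearer end. Of the 92, 40 were higher in LMPP than in LT-HSC and 52 lower. Esam, an endothelial and stem cell adhesion molecule, had a position of 0.12 and lay 3.76 ± 0.23 (adjusted p = 4.98e-10) above LMPP. Bgn, the proteoglycan biglycan, was at 0.04, with 4.34 ± 0.23 (adjusted p = 8.71e-11). It was the 1 of the 6 measured stroma and endothelium markers called against LMPP, where the list's median difference was 0.02 and its summed level did not overlap. Dntt, the terminal transferase of lymphoid progenitors, sat at -0.32, with -4.20 ± 0.33 (adjusted p = 3.27e-08) from LMPP. Its -1.01 ± 0.30 (adjusted p = 0.0554) from LT-HSC did not pass, so a place beyond the LT-HSC end was not shown. Dntt was detected on 1 GATA1-LSK array (group mean 4.79) and on 0 GATA1+LSK arrays (4.35). Of the 20 nearer to LMPP, Mcm2, part of the replicative helicase, was the only gene higher in LMPP. It read 10.65, 10.40, 10.62 and 10.27 in GATA1-LSK, 10.54, 10.77, 10.60 and 10.09 in LMPP and 7.92 to 9.02 with a median of 8.93 in LT-HSC. GATA1-LSK thus lay within the LMPP range and above every LT-HSC array. The GATA1+LSK and CMP means were similar, 10.53 and 10.71 against 10.49 in GATA1-LSK, so LT-HSC alone stood apart, lower. Car1, carbonic anhydrase of early erythroid cells, was detected on no GATA1-LSK array, at least 13.5-fold below LT-HSC (4.54 measured against 8.73, adjusted p = 1.62e-07). The 20 fell to 10 without GATA1-LSK array 1 and to 13 without array 2 or without LMPP array 1, and the 92 fell to 56 without GATA1-LSK array 1 or 2.

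Beyond both ends lay 22 genes higher in GATA1-LSK than in LT-HSC and LMPP (0.198%) and 24 lower (0.216%), named after their values were seen. Some were also counted on a side of the midpoint, Itga2b (position -0.46) and Notch1 (-1.31) nearer to LT-HSC and Ahnak (3.80) nearer to LMPP. GATA1-LSK was called apart from GATA1+LSK for 5 of the 22 and 4 of the 24, and not for the other 17 and 20. Over all tested genes 305 (2.74%) were called against GATA1+LSK, so most genes of any kind were not. Itga2b, the platelet integrin chain CD41, read 11.11, 11.32, 11.30 and 11.40 in GATA1-LSK, 6.89, 6.64, 6.87 and 7.78 in LMPP, 12.13, 12.98, 12.76 and 13.06 in GATA1+LSK and 8.71 to 10.86 with a median of 10.16 in LT-HSC. GATA1-LSK lay above every LT-HSC and LMPP array and below every GATA1+LSK array. It differed by 4.24 ± 0.35 (adjusted p = 5.62e-08) from LMPP, 1.33 ± 0.32 (adjusted p = 0.0175) from LT-HSC and -1.45 ± 0.35 (adjusted p = 0.0256) from GATA1+LSK. Emilin2, an extracellular matrix glycoprotein, was 3.23 ± 0.33 (adjusted p = 1.02e-06) above LMPP and 3.06 ± 0.30 (adjusted p = 9.56e-07) above LT-HSC. Homer2, a synaptic scaffold protein, was 2.49 ± 0.53 (adjusted p = 0.00567) and 3.11 ± 0.48 (adjusted p = 0.000379) above them. Sox6, a factor of erythroid maturation, and Gna14, a G protein subunit, were also higher than both ends. Against LT-HSC the call was lost in 12 of 37 other settings for Sox6, 11 for Gna14, 2 for Itga2b and 0 each for Emilin2 and Homer2. Against LMPP it was lost in 11 for Gna14, 1 for Homer2 and 0 each for Sox6, Itga2b and Emilin2. Fcer1a, the IgE receptor chain of mast cells and basophils, was 1.67 ± 0.36 (adjusted p = 0.00787) above LT-HSC, but on slide 3 alone the difference was -0.02.

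Notch1, the receptor that starts T cell commitment, was among the genes below both ends. It read 5.76, 5.41, 6.21 and 5.52 in GATA1-LSK, 5.56, 5.67, 6.20 and 5.81 in GATA1+LSK, 8.21, 7.92, 8.23 and 9.29 in LMPP, 6.80, 7.13, 6.88 and 8.04 in CMP and 6.96 to 7.5 with a median of 7.23 in LT-HSC. GATA1-LSK lay under every LMPP, CMP and LT-HSC array and overlapped GATA1+LSK. The differences were -2.69 ± 0.29 (adjusted p = 2.03e-06) from LMPP, -1.49 ± 0.29 (adjusted p = 0.00159) from CMP and -1.52 ± 0.26 (adjusted p = 0.00106) from LT-HSC, against -0.08 ± 0.29 (adjusted p = 0.937) from GATA1+LSK. Ahnak, a large scaffold protein, was at -1.92 ± 0.24 (adjusted p = 1.88e-05) from LMPP and -2.60 ± 0.22 (adjusted p = 1.62e-07) from LT-HSC. Cd74 and H2-Aa, of the MHC class II pathway, Klrd1, an NK cell receptor chain, and Gas6 and Il10ra were also below both. For H2-Aa the call was lost in 9 of 37 other settings against LMPP and 10 against LT-HSC. For Klrd1 it was lost in 7 and 0, and for Cd74 in 0 and 0.

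Gene lists placed GATA1-LSK at different points between LT-HSC and LMPP. The 15 DNA replication genes that differed between the ends had a median position of 0.85 (0.62 to 1.02), the 11 mitosis genes 0.50 (0.25 to 0.68) and the 13 stem cell genes 0.35 (0.09 to 0.65), against 0.58 for all 1798 called genes. The 10 megakaryocyte and platelet genes centred on 0.0043 (-0.46 to 0.55), with 5 called nearer to LT-HSC. The 8 lymphoid priming genes centred on -0.22 (-1.31 to 0.81), with 4 called nearer to LT-HSC. Of all 1798 called genes, 92 were called nearer to LT-HSC. The 5 GATA1 partners and related factors lay at 0.11 to 0.18. Over the same genes GATA1+LSK had medians of 1.02 for DNA replication, 1.07 for mitosis and 0.26 for stem cell genes. Its medians were -0.72 for megakaryocyte and platelet, -0.56 for lymphoid priming and 0.02 for the partners and related factors. The megakaryocyte and platelet and the lymphoid priming medians thus lay past the LT-HSC end in GATA1+LSK. In GATA1-LSK the megakaryocyte and platelet median was at that end, and the lymphoid priming median was less far past it. All 13 stem cell genes and all 11 mitosis genes lay between the ends, as did 1526 (84.9%) of the 1798 called genes. These lists share genes with the comparisons already given, and their medians are descriptions.

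**Figure D5:**
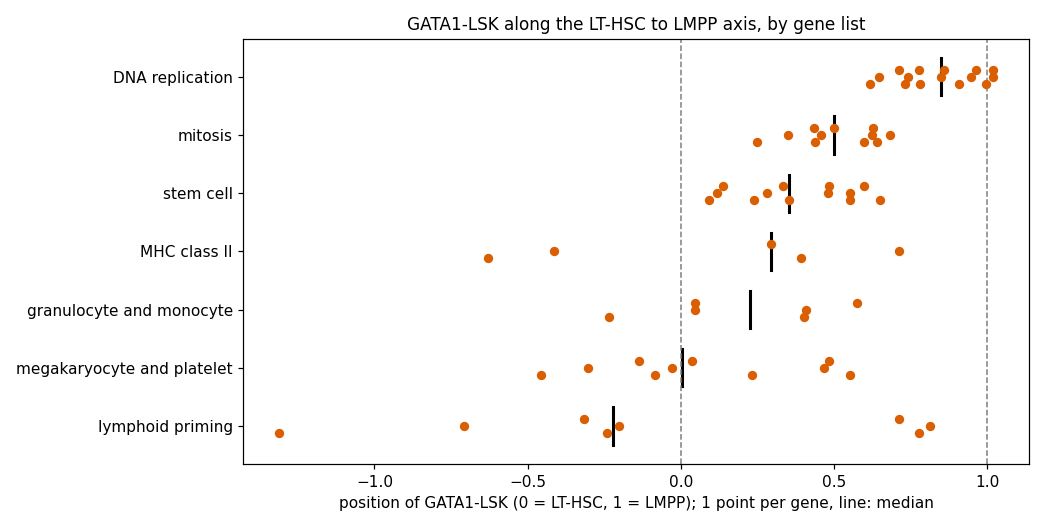
Position of GATA1-LSK for the genes of 7 lists that differed between LT-HSC (0) and LMPP (1), each point being a gene and each bar the list median. DNA replication genes gather near LMPP (median 0.85), megakaryocyte and platelet genes near LT-HSC (0.0043) and lymphoid priming genes on the far side of LT-HSC (-0.22). GATA1+LSK, not drawn, had medians of 1.02, -0.72 and -0.56 for these lists.

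Of the 16 measured of 19 stem cell genes, 8 were lower than in LT-HSC and 0 higher (median difference -1.05), and 10 were higher than in LMPP (1.67) and 10 higher than in CMP (1.53), with 0 lower. Over the other scalings, the authors' normalised values, the slide block and leaving out each GATA1-LSK array, these counts ran from 3 to 8, 6 to 12 and 7 to 10, and the ranges given for the lists that follow are over the same settings. Median scaling gave the 3 and the 6. The medians of all genes were 0.05 against GATA1+LSK, -0.01 against LMPP, 0.01 against CMP and 0.05 against LT-HSC. Of all tested genes, 1.66% were called higher and 1.08% lower than in GATA1+LSK, and 2.15% and 1.34% than in LMPP. Against CMP these shares were 5.23% and 2.45%, and against LT-HSC 2.71% and 2.74%. They are the background for each list that follows too. Cdkn1c, the cyclin-dependent kinase inhibitor p57 of quiescent stem cells, was 4.31 ± 0.24 (adjusted p = 6.83e-11) above CMP and at -1.17 ± 0.22 (adjusted p = 0.00205) from LT-HSC. Hoxb5, a homeobox factor of long-term stem cells, was 2.47 ± 0.25 (adjusted p = 7.1e-07) above LMPP and at -1.24 ± 0.23 (adjusted p = 0.00183) from LT-HSC. Tgm2, a transglutaminase, was 4.46 ± 0.49 (adjusted p = 2.57e-06) above LMPP. Against GATA1+LSK Robo4, an adhesion receptor, was the 1 gene called higher and 2 were lower.

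Of 15 measured of 20 megakaryocyte and platelet genes, 7 were lower than in GATA1+LSK (median -1.42, with 6 to 8 over the settings) and 9 higher than in LMPP (1.94, with 6 to 11), while 2 were higher than in CMP (0.05) and 1 higher and 2 lower than in LT-HSC (0.10). Treml1, a platelet receptor, read 8.98, 9.02, 8.68 and 8.43 in GATA1-LSK, 10.92, 10.97, 10.88 and 11.53 in GATA1+LSK and 7.65 to 8.99 with a median of 8.49 in LT-HSC. It was detected on no LMPP array, so GATA1-LSK was at least 14.5-fold higher (8.78 against a measured 4.51, adjusted p = 4.98e-10). Treml1 lay below every GATA1+LSK array, at -2.30 ± 0.26 (adjusted p = 1.24e-05). Gp5 and Gp9, chains of the platelet glycoprotein Ib complex, were 3.44 and 1.95 higher than in LMPP and -1.91 and -1.43 from GATA1+LSK, all 4 passing. Pf4, platelet factor 4, was at -3.62 ± 0.69 (adjusted p = 0.00421) from GATA1+LSK. With median scaling 0 of the list were higher than in CMP and 2 lower.

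Among erythroid genes, 11 of 18 were measured and 6 were lower than in GATA1+LSK (4 to 6 over the settings), 3 lower than in CMP, 2 lower than in LT-HSC and 1 higher than in LMPP. Klf1, the erythroid Krüppel-like factor, was at -1.65 ± 0.23 (adjusted p = 0.000205) from GATA1+LSK and -1.44 ± 0.23 (adjusted p = 0.000238) from CMP. Mast cell, basophil and eosinophil genes (8 of 12) had 5 lower than in GATA1+LSK (4 to 5). Prss34, a basophil protease, was detected on no GATA1-LSK array and was at least 60.5-fold below GATA1+LSK (4.63 measured against 10.90, adjusted p = 5.58e-12). Prg2, the eosinophil major basic protein, was at -5.28 ± 0.81 (adjusted p = 0.000552) from GATA1+LSK and -4.32 ± 0.74 (adjusted p = 0.00106) from LT-HSC. Against LMPP, Cpa3, mast cell carboxypeptidase, was 4.01 ± 0.40 (adjusted p = 8.29e-07) higher. The GATA1 partners and related factors (11 of 12) showed 0 calls by limma against GATA1+LSK and 0 against LT-HSC. At an unadjusted p under 0.05, 2 were higher and 1 lower than in GATA1+LSK, and 1 was higher than in LT-HSC. With adjustment, 4 were higher than in LMPP (2 to 4) and 1 higher than in CMP. Gata2, the stem cell GATA factor, was 2.17 ± 0.33 (adjusted p = 0.000203) above LMPP, and Tal1 and Gfi1b were 1.35 and 1.54 above it.

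Of 15 measured of 20 lymphoid priming genes, 5 were lower than in LMPP (median -0.66, with 4 to 6 over the settings) and 0 higher. Dntt was detected on all LMPP arrays at 8.55 to 9.42 and lay at 4.55 to 5.38 in GATA1-LSK, a difference of -4.20 ± 0.33 (adjusted p = 3.27e-08). Satb1, a chromatin organiser of lymphoid priming, was at -2.33 ± 0.25 (adjusted p = 2.23e-06) from LMPP and -1.28 ± 0.25 (adjusted p = 0.00179) from CMP but 1.73 ± 0.25 (adjusted p = 0.000289) above GATA1+LSK. Against GATA1+LSK 5 of the list were higher (0.16) and against LT-HSC 4 were lower (-0.45). The 5 became 1 with median scaling and 3 with the slide block or without GATA1-LSK array 1, 2 or 3, and the 4 became 2 with median scaling. Ltb, lymphotoxin beta, was 2.01 ± 0.24 (adjusted p = 1.62e-05) above GATA1+LSK. Ly6d, which marks lymphoid progenitors, read 7.82, 6.74, 6.71 and 5.31 in GATA1-LSK and 7.66 to 10.997 with a median of 8.45 in LT-HSC, with no signal above background on any GATA1+LSK or CMP array. GATA1-LSK was at least 3.12-fold above GATA1+LSK and at least 3.31-fold above CMP (its mean was 6.64 against a measured 4.33 and 4.35, adjusted p = 0.031 and 0.0143) and at -2.34 ± 0.53 (adjusted p = 0.0109) from LT-HSC. Il7r, the interleukin 7 receptor, was at -1.83 ± 0.43 (adjusted p = 0.0144) from LT-HSC.

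Granulocyte and monocyte genes (23 of 25 measured) had 7 higher and 0 lower than in GATA1+LSK (median 1.03), 0 higher and 6 lower than in CMP (-0.81), 1 higher and 2 lower than in LMPP (0.26), and 2 higher and 0 lower than in LT-HSC (0.64). Over the settings 6 to 7 were higher than in GATA1+LSK, 6 to 7 lower than in CMP and 0 to 2 higher than in LT-HSC. Gfi1, a repressor of granulocyte development, was 2.54 ± 0.29 (adjusted p = 1.3e-05) above GATA1+LSK, and Ly6c1, a surface antigen of myeloid cells, was 4.45 ± 0.48 (adjusted p = 6.73e-06) above it. Irf8, which directs monocytes and dendritic cells, was at -1.73 ± 0.27 (adjusted p = 0.000222) from LMPP and -3.00 ± 0.27 (adjusted p = 1.23e-07) from CMP. F13a1, a clotting factor subunit of monocytes, was at -4.31 ± 0.23 (adjusted p = 6.83e-11) from CMP. Spi1, which encodes PU.1, was 1.03 ± 0.32 (adjusted p = 0.0943) from GATA1+LSK and did not pass in any comparison. Of 10 MHC class II genes, 2 were higher than in GATA1+LSK (0.67), 5 lower than in LMPP (-1.45), and 1 higher and 3 lower than in LT-HSC (-0.47). The 2 became 0 with the slide block, the 5 became 3 with median scaling or without GATA1-LSK array 2, 3 or 4, and against LT-HSC 0 to 1 were higher and 1 to 3 lower, 1 being lower without GATA1-LSK array 2 or 3. Cd74, the invariant chain, was 2.38 ± 0.39 (adjusted p = 0.00108) above GATA1+LSK and at -1.90 ± 0.39 (adjusted p = 0.00469) from LMPP.

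Part of the cell cycle genes differed from LT-HSC. Of 22 measured DNA replication genes of 25, 11 were higher than in LT-HSC and 0 lower (median 0.90), a count that ran from 2 to 13 over the scalings, the slide block and leaving out single GATA1-LSK arrays. It was 3, 4 or 4 without GATA1-LSK array 1, 2 or 3. Mcm2 was 1.78 ± 0.20 (adjusted p = 5.96e-06) and Rfc2, a clamp loader subunit, 1.15 ± 0.20 (adjusted p = 0.00126) above LT-HSC. Of 11 mitosis genes of 17, 5 were higher than in LT-HSC (1.19) and 4 lower than in GATA1+LSK (-1.01) and 3 lower than in CMP (-1.02), while against LMPP limma called 0, with 8 lower at an unadjusted p under 0.05. Over the settings 3 to 5 were higher than in LT-HSC, 1 to 5 lower than in GATA1+LSK, 0 to 5 lower than in CMP and 0 to 7 lower than in LMPP. Leaving out GATA1-LSK array 1, 2, 3 or 4 gave 2, 1, 2 or 2 lower than in GATA1+LSK, and without array 2 the count against CMP was 0. With the slide as a block 7 were lower than in LMPP. Cdk1, the mitotic kinase, was 1.29 ± 0.23 (adjusted p = 0.00162) above LT-HSC and at -1.01 ± 0.25 (adjusted p = 0.031) from GATA1+LSK. Ribosome biogenesis genes (14 measured) had 0 calls by limma in the 4 comparisons. At an unadjusted p under 0.05, 1 was lower than in GATA1+LSK, 4 lower than in CMP, 2 higher than in LT-HSC and 0 apart from LMPP.

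Of 17 measured immediate-early genes, 13 were higher in GATA1-LSK than in CMP (median 2.52), with 0 called by limma in the other 3 comparisons. There, at an unadjusted p under 0.05, 2 were higher than in GATA1+LSK, 2 higher than in LT-HSC and 1 lower than in LMPP. Egr1, a stress- and growth-induced zinc-finger factor, was 4.73 ± 0.30 (adjusted p = 7.08e-10) above CMP, and Zfp36, which destabilises cytokine mRNA, 3.54 ± 0.43 (adjusted p = 8.26e-06). The count ran from 4 to 13 over the scalings, the slide block and leaving out single GATA1-LSK arrays, and GATA1-LSK and CMP shared no slide. Interferon response genes (12 of 17) had 2 higher than in GATA1+LSK (1 to 2 over the settings, 1 without GATA1-LSK array 1, 2 or 4) and 4 higher than in CMP (0 to 4, 0 with median scaling), among them Ifitm1, at 1.25 (adjusted p = 0.00618) and 1.10 (adjusted p = 0.00624). No list gene that was called changed sign under another scaling, the slide block or without any single GATA1-LSK array.

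The largest differences with no overlap between arrays were of mixed kinds. Against LMPP, Grb10, an imprinted adaptor that restrains growth factor signalling, was 4.79 ± 0.45 (adjusted p = 2.6e-07) higher and Cox6a2, a cytochrome oxidase subunit, was at -6.00 ± 1.01 (adjusted p = 0.000554). Against CMP, Hes1, a Notch target and repressor, was detected on no CMP array and at least 24.1-fold higher in GATA1-LSK (9.51 against a measured 4.47, adjusted p = 0.0176), and Csrp3 was at -4.98 ± 0.50 (adjusted p = 5.43e-07). Against GATA1+LSK, Hp, haptoglobin, was 4.07 ± 0.96 (adjusted p = 0.0214) higher, and Cavin2, a caveolar coat protein, was at least 12.7-fold lower (4.48 measured against 8.64, adjusted p = 4.05e-10). Against LT-HSC, Emid1 was 2.33 ± 0.30 (adjusted p = 4.27e-05) higher, and Slc38a5, an amino acid transporter, at least 11.8-fold lower (4.48 measured against 8.54, adjusted p = 5.06e-05).

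Arrays on slide 1, 3 of each group, are part of the means that chose the genes called against LMPP, as the 1 GATA1-LSK array on slide 3 is for LT-HSC, so the direction kept within a slide is given for no list. Tested within slide 1 alone, 3 arrays against 3, limma called 689 genes against LMPP. Within slide 3 alone, 1 array against 4, it called 0 genes against LT-HSC, with 778 (7%) at an unadjusted p under 0.05, the lone array being taken to vary like the others. CMP and GATA1-LSK met on no slide, so there the batch and the group cannot be told apart except through populations that link the slides.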

How the data were processed

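Expression was measured on Illumina bead arrays in 5 populations, grouped by the array titles. The deposited intensity values are linear and not normalised, each with a deposited detection p-value against the negative control beads of its array. The series matrix holds linear intensity values that the authors had normalised between arrays, with sorted columns nearly identical. BeadStudio is named without a version, per the submitters' processing notes, and the background step is not given in the sources used here.

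Background correction, with its noise level inferred from those p-values, and quantile normalisation were done with neqc of limma 3.58.1 in R 4.3.3 (offset 16, log2). Of 45281 probes, 34885 named 1 gene, 18 several and 10378 none. Probes detected (p under 0.05) on at least 4 of 22 arrays were kept, 19764 in all and 16575 with 1 gene, and the brightest probe stood for each of 11118 genes. A group-means model over all arrays was fitted with lmFit and eBayes (two-sided moderated tests, 17 residual degrees of freedom), with Benjamini-Hochberg adjustment over all genes and a threshold of 0.05. The fit was tested on simulated data. The number of arrays limits the precision.

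Named genes were those called in 1 direction against all 4 groups, the 5 next to that threshold, the 8 stepwise genes with the largest LMPP to LT-HSC difference in each direction, the 3 largest non-overlapping differences per direction and comparison, up to 4 called members of each list, and 15 landmark genes. Clone and predicted names were left out of the largest differences and the stepwise genes. Genes called against exactly 3 groups, in mixed directions, beyond both ends or under array weights were named after their values were seen. Members and lists were chosen with earlier results of these data known. Alternatives were other normalisations, filters and probe summaries, the slide (fixed, or random with statmod 1.5.0) or replicate number as a block, fewer groups, array weights, a variance trend, a 2-fold minimum and leaving out each array. Tests within a slide, at unadjusted p and against exactly 3 groups were added after seeing the data.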

Additional observations from a re-analysis of the deposited data

Results flagged for a closer look

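In 90 groups of arrays over 17 genes and the positions, 3 arrays stood apart from the rest of their group by Dixon's test, where chance flags about 1 in 20 groups, or 4.5 of 90. Espl1 read 7.86 on GATA1-LSK array 3, above the other 3 GATA1-LSK arrays at 7.28 to 7.32. Epb41l1 read 4.79 on GATA1+LSK array 4, below the other GATA1+LSK arrays, which were at 6.41 or more, and Treml1 read 11.53 on the same array, above the others at 10.88 to 10.97. GATA1+LSK array 4 also had the lowest array weight, 0.271.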

How the results depend on the processing

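The 4-way counts stayed at 0 higher and 0 lower in GATA1-LSK under the other normalisations, filters, probe summaries and slide blocks. Array weights gave 8 and 1, the replicate block 1 and 1, unadjusted p 14 and 3, and calls against exactly 3 groups 10 and 3. Leaving out each array gave 0 to 1 higher, the 1 being Slc7a8 without CMP array 3, and 0 lower. Over those omissions the calls ranged from 175 to 363 against GATA1+LSK, 283 to 450 against LMPP, 605 to 956 against CMP, 284 to 690 against LT-HSC and 1323 to 1900 between LMPP and LT-HSC. Stepwise genes ranged from 34 to 76, genes nearer to LMPP from 10 to 27, those nearer to LT-HSC from 56 to 100 and the median position from 0.50 to 0.56.

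Median scaling lowered the calls to 94 against GATA1+LSK, 189 against LMPP, 434 against CMP, 167 against LT-HSC and 965 between the ends, with 13 stepwise, 6 nearer LMPP and 44 nearer LT-HSC. Array weights raised them to 1102, 999, 3039, 1440 and 3091, with 162 stepwise, 112 and 183 nearer LMPP and LT-HSC, and a position of 0.61. A fixed slide block gave 671 against LMPP, 249 against LT-HSC and 1114 between the ends, and a random one 640 and 359 for the first pair. Fitting only the groups compared gave 161 against GATA1+LSK, 646 against LMPP, 297 against LT-HSC and 13 nearer LMPP. Cyclic loess gave 12 nearer LMPP. A 2-fold minimum gave 391 against LT-HSC, 1152 between the ends and 12 nearer LMPP. Within slide 1 alone 689 were called against LMPP, and within slide 3 alone 0 against LT-HSC. Of the called differences of named genes, 2 reversed, both within slide 3: Fcer1a against LT-HSC (-0.021) and Bcl11b against GATA1+LSK (-0.81). The causes were not tested.

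With the replicate number as a block, 572 genes were called against GATA1+LSK, 586 against LMPP, 1278 against CMP and 888 against LT-HSC, with 111 stepwise and 50 nearer LMPP. Same-numbered arrays correlated at -0.34 to 0.43, over 0.1 in some pairs of each comparison but not in all. Correlations of single arrays cannot decide whether the numbers pair the samples, and the labels do not say.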
